A study of Macaca fascicularis with 12 samples.

Results

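The lysosomal genes described here are 45 genes for soluble lysosomal hydrolases and their activators, lysosomal membrane proteins, subunits of the proton pump, and the transcription factors of the MiT/TFE family. They were followed in the iliac artery of 12 female cynomolgus monkeys (Macaca fascicularis) with atherosclerotic plaques of different size. Members were chosen by gene symbol: a gene was represented by its brightest probe among those whose platform annotation gives a single symbol. By this rule 42 of the 45 genes were measured, out of 18160 genes measured in the series. The 42 comprised 25 of 27 hydrolases and activators, 8 of 8 membrane proteins, 5 of 6 proton pump genes and 4 of 4 transcription factors. AGA, ACP5 and ATP6V0D2 had no single-symbol probe and were not analysed here.

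All 12 animals were untreated, older than 20 years, had lost their ovaries 4 years before and had been on a high fat diet, kept up over 8 years. The small plaque group (n = 4) had plaque areas of 0.113, 0, 0.041 and 0 mm2 in replicates 1 to 4, so that 2 of its arteries held no plaque. In the medium plaque group (n = 5) the areas of replicates 1 to 5 were 0.448, 0.30, 0.391, 0.542 and 0.516 mm2. The large plaque group (n = 3) had areas of 1.003, 0.61 and 0.873 mm2 in replicates 1 to 3. One artery biopsy per animal was hybridized to 1 array, so replicates are separate animals. All 12 therefore share the diet and the loss of the ovaries, and each biopsy is labelled as artery, not as plaque alone.

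Lysosomes are acidic organelles in which cells take apart lipids, glycoproteins, glycosaminoglycans, glycogen, proteins and nucleic acids delivered by endocytosis, phagocytosis and autophagy. A vacuolar-type proton pump acidifies the lumen, membrane glycoproteins line the boundary, and channels and transporters move ions and breakdown products across it. TFEB, TFE3, MITF and TFEC form the MiT/TFE family of basic helix-loop-helix leucine zipper factors, whose members bind the promoters of many lysosomal genes, and lipid-loaded macrophages of plaques are known for their large lysosomal load.

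Levels are log2 intensities of the deposited values, in which every array has a median near 1, so that a log2 level of 0 lies close to the median probe. A floor of 0.111, or -3.17 on the log2 scale, replaced lower intensities. Probes were designed on human transcripts, and a mismatch to the monkey sequence can change a probe's brightness. Differences were therefore taken between arteries for the same probe and not between genes. All correlations between arrays lay between 0.918 and 0.972. The smooth muscle genes MYH11 and ACTA2 were bright in every artery, at log2 levels of 8.16 to 9.59 and 7.40 to 9.38. They mark smooth muscle in every biopsy, and that the tissue is artery comes from the labels.

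Across the 42 genes, levels were higher in medium and in large than in small plaque arteries for a subset, and no gene passed the threshold in the other direction. In medium against small, 15 genes rose and 0 fell at a limma adjusted p below 0.05. Among all 18160 genes by their brightest probe, 3.58% rose and 1.61% fell in this comparison. In large against small, 12 genes rose and 0 fell, where 1.91% of all genes rose and 0.253% fell. At an unadjusted limma p below 0.05 there were 24 genes in medium against small, 0 of them lower, beside 18.3% of all probes in either direction. In large against small there were 26, beside 16.1% of all probes, and 3 of them were lower (ARSA, MANBA on its brightest probe and LAPTM4B). Shares of all probes cover all 53877 tested probes, 29710 of them without a symbol, and not the brightest probe per gene. The median difference over the 42 genes was 0.90 log2 units in medium and 0.92 in large against small, beside -0.0326 and -0.0544 over all genes. Both comparisons use the same 4 small arteries, so they are not independent. The members were chosen with earlier results of these data known. Shares of all genes, here and below, thus describe the setting and do not test the members. The tissue is bulk, so that more cells of a type and more RNA per cell cannot be told apart.

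**Figure D1:**
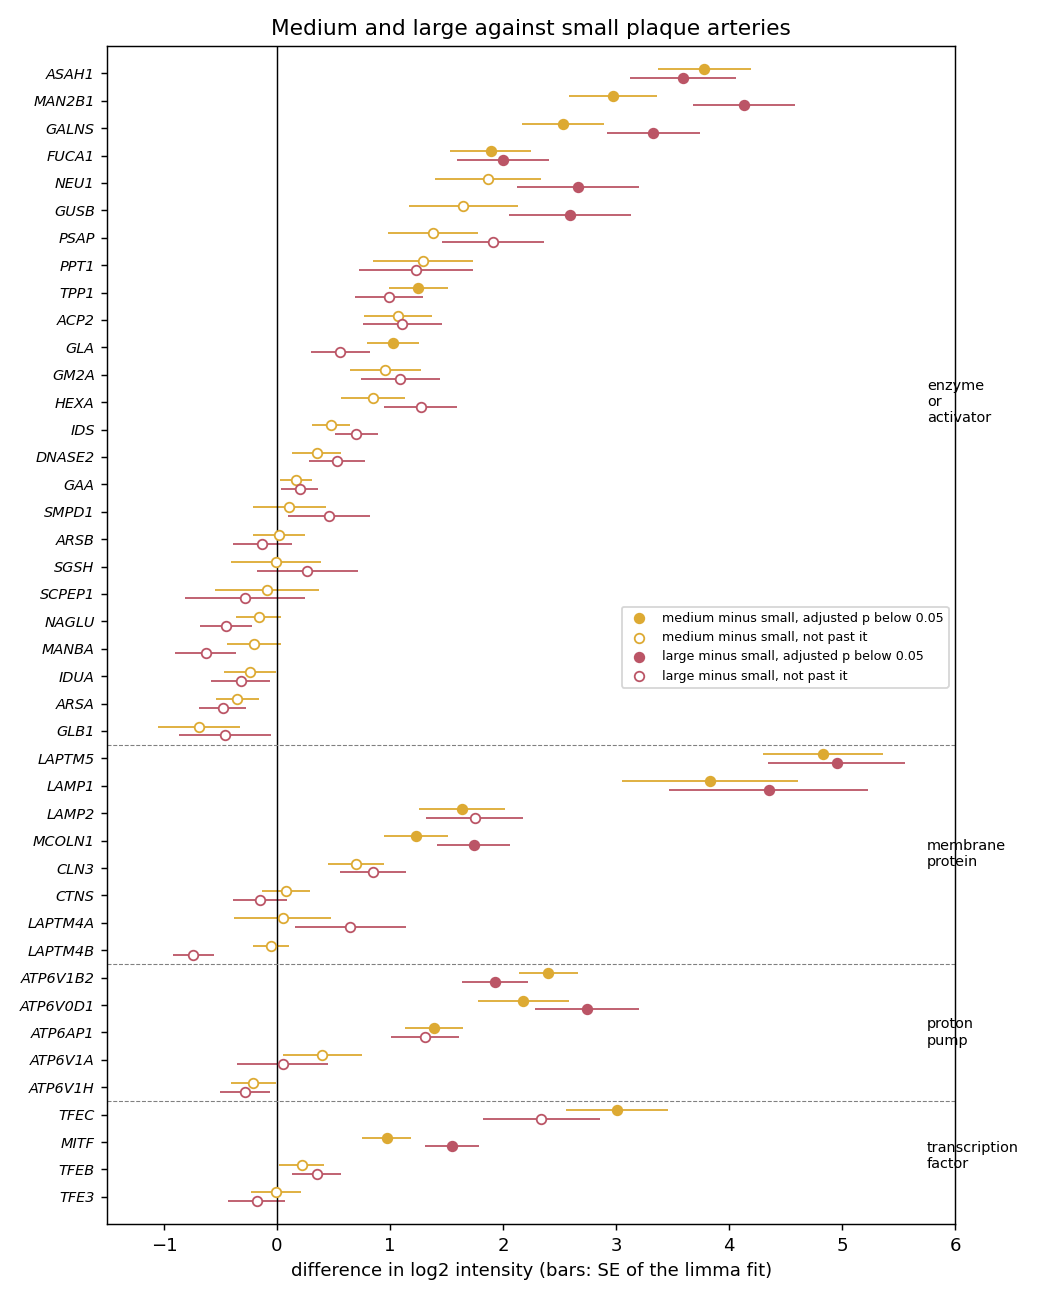
Difference in log2 intensity of each of the 42 lysosomal genes in medium minus small (yellow) and large minus small (red) plaque arteries, with bars for the SE of the limma fit. Filled points have an adjusted p below 0.05; all filled points lie to the right of 0, 15 for medium and 12 for large.

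Of 4 measured enzymes that remove sugars from glycoproteins, MAN2B1 and FUCA1 rose in both medium and large against small. MAN2B1, the lysosomal alpha-mannosidase, had log2 levels of -1.25, -1.39, 0.20 and -0.74 in small, 3.19, 1.75, 2.31, 1.73 and 1.86 in medium, and 3.79, 2.65 and 3.56 in large plaque arteries. No small artery reached the lowest of the other 8, and 2 of the 3 large arteries exceeded all medium arteries. MAN2B1 was higher by 2.97 ± 0.39 log2 units in medium against small (SE, n = 5 and 4; 7.81-fold; limma adjusted p = 0.00235). It was higher by 4.13 ± 0.45 in large against small (n = 3 and 4; 17.5-fold; limma adjusted p = 0.00149).

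FUCA1, the alpha-fucosidase of the same pathway, had levels of 0.41, -0.39, -0.29 and 0.74 in small, 2.88, 2.00, 1.22, 2.10 and 1.84 in medium, and 2.17, 1.43 and 2.73 in large. It lay apart from the small group in all 8 arteries with more plaque, and the medium and large values were interleaved. Its rise was 1.89 ± 0.36 in medium (limma adjusted p = 0.0167) and 2.00 ± 0.41 in large (limma adjusted p = 0.0418), both against small. NEU1, the sialidase that takes terminal sialic acid off glycans, had levels of -1.43, -2.47, -2.19 and -2.86 in small, 1.24, -0.07, -0.65, -1.25 and -1.14 in medium, and 0.79, -0.06 and 0.53 in large. The large arteries stood well clear of the small ones, whereas the lowest medium arteries came close to the highest small artery. NEU1 rose in large against small, by 2.66 ± 0.54 (limma adjusted p = 0.0381), and its difference in medium against small, 1.87 ± 0.47, had a limma adjusted p of 0.0535.

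The beta-mannosidase MANBA was measured by a pair of probes that did not show the same. Its brightest probe differed by -0.20 ± 0.24 in medium and -0.63 ± 0.27 in large against small, with limma adjusted p of 0.698 and 0.279. The dimmer probe differed by 1.20 ± 0.34 and 1.18 ± 0.38, with limma adjusted p of 0.0782 and 0.157. Neither probe passed the threshold, and no direction can be given for MANBA. Of the 4 measured glycoprotein enzymes, 2 rose in medium and 3 in large against small.

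Of 8 genes for sphingolipid breakdown, GLA and ASAH1 rose in medium and ASAH1 in large against small. ASAH1, the acid ceramidase, had levels of 0.24, -0.12, -0.22 and 1.07 in small, 5.15, 4.06, 3.82, 4.03 and 3.07 in medium, and 4.37, 3.04 and 4.10 in large. The lowest medium or large artery was 1.97 log2 units above the highest small artery, and medium and large overlapped throughout. The rise was 3.78 ± 0.41 in medium against small (13.8-fold; limma adjusted p = 0.000643) and 3.59 ± 0.47 in large against small (12.1-fold; limma adjusted p = 0.00426). Large against medium differed by -0.19 log2 units.

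GLA, alpha-galactosidase A, which cleaves globotriaosylceramide, had levels of 3.08, 2.66, 1.91 and 2.54 in small, 3.81, 3.37, 3.32, 3.99 and 3.39 in medium, and 3.14, 2.99 and 3.19 in large. All 5 medium arteries exceeded all small arteries, but large replicate 2 did not exceed small replicate 1. GLA rose by 1.03 ± 0.23 in medium (limma adjusted p = 0.035), and the difference of 0.56 ± 0.26 in large against small had a limma adjusted p of 0.326. PSAP, the precursor of the saposins that present lipids to these enzymes, had levels of 2.05, 1.01, 1.93 and 1.01 in small, 3.88, 2.89, 2.67, 2.54 and 2.41 in medium, and 4.01, 2.40 and 3.83 in large. All 8 arteries with more plaque were above the small ones, yet with a narrow margin for medium replicate 5 and large replicate 2. The PSAP differences of 1.38 ± 0.40 and 1.91 ± 0.45 had limma adjusted p of 0.087 and 0.0653.

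The other sphingolipid genes did not pass the threshold against small in either group. HEXA, the alpha subunit of beta-hexosaminidase, differed by 0.85 and 1.27 log2 units on its brightest probe and by 0.23 and 0.07 on its other probe, in medium and in large. GM2A, the activator that hands GM2 ganglioside to hexosaminidase, differed by 0.96 and 1.09. The acid sphingomyelinase SMPD1 lacked a value in small replicate 3, and its fit on 11 arrays gave 0.11 and 0.46. GLB1, the beta-galactosidase, and ARSA, the sulfatase that acts on sulfatide, had negative differences: -0.69 and -0.46 for GLB1, and -0.35 and -0.48 for ARSA.

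Among the 7 enzymes of glycosaminoglycan breakdown, GALNS stood apart. GALNS, which removes sulfate from keratan sulfate and chondroitin 6-sulfate, had levels of -2.60, -2.26, -2.34 and -2.60 in small, 1.04, -0.10, -0.60, 0.14 and -0.07 in medium, and 1.64, -0.09 and 1.08 in large. The 4 small arteries lay close together, and every other artery was at least 1.66 log2 units above the highest of them. GALNS rose by 2.53 ± 0.36 in medium (5.79-fold; limma adjusted p = 0.00316) and by 3.33 ± 0.41 in large against small (10.0-fold; limma adjusted p = 0.00284).

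GUSB, the beta-glucuronidase, had levels of -1.60, -1.32, -2.56 and -2.60 in small, 1.39, -0.62, -0.67, -0.67 and -1.30 in medium, and 0.72, 0.17 and 0.82 in large. All large arteries were well above the small ones, while medium replicate 5 was only 0.02 above small replicate 2, and medium replicate 1 had the highest value of all 12. GUSB rose in large against small, by 2.59 ± 0.54 (limma adjusted p = 0.0439), and its difference in medium, 1.65 ± 0.48, had a limma adjusted p of 0.0877. The iduronate sulfatase IDS differed by 0.48 and 0.70 on its brightest probe, not past the threshold, and by between -0.14 and 0.15 on its 3 dimmer probes. The remaining 4, namely IDUA, NAGLU, SGSH and ARSB, which act on heparan or dermatan sulfate, had differences between -0.24 and 0.02 in medium and between -0.45 and 0.27 in large. The median over the 7 was 0.02 log2 units in medium and 0.27 in large against small, beside 1.88 and 2.33 over the 4 glycoprotein enzymes. MANBA, whose probes disagree, entered the latter by its brightest probe. Whether the classes differ was not tested.

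Of the 6 measured enzymes for other substrates, TPP1 rose in medium against small. TPP1, a tripeptidyl peptidase, had levels of 1.33, 1.09, 1.61 and 1.24 in small, 2.43, 2.18, 2.53, 3.26 and 2.44 in medium, and 2.52, 1.66 and 2.75 in large. Medium arteries were all clear of the small ones, and large replicate 2 was only 0.05 above small replicate 3. TPP1 rose by 1.25 ± 0.26 in medium (limma adjusted p = 0.0247), and the 0.99 ± 0.30 in large had a limma adjusted p of 0.129. ACP2, an acid phosphatase, and PPT1, which strips palmitate from proteins, differed by 1.07 and 1.29 in medium and by 1.11 and 1.23 in large, short of the threshold. GAA, the acid alpha-glucosidase that degrades glycogen, lay between 2.40 and 2.87 in all 12 arteries. Its differences were 0.17 ± 0.14 in medium and 0.20 ± 0.16 in large, and the 95% intervals run from -0.13 to 0.48 and from -0.15 to 0.55. The endonuclease DNASE2 differed by 0.35 and 0.53 and the carboxypeptidase SCPEP1 by -0.09 and -0.28. SCPEP1 was at the floor in 3 of the 12 arteries.

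Among the 8 membrane proteins, MCOLN1, LAMP1, LAMP2 and LAPTM5 rose in medium, and MCOLN1, LAMP1 and LAPTM5 in large against small. LAPTM5, a transmembrane protein of lysosomes in blood-derived cells, had levels of -1.32, -3.17, -3.0 and -0.83 in small, 3.18, 2.82, 2.38, 2.85 and 2.53 in medium, and 3.97, 1.64 and 2.99 in large. The gap of 2.47 between large replicate 2 and the highest small artery was the widest of the 42 genes, and the medium arteries were closer to each other than the large ones. LAPTM5 rose by 4.83 ± 0.53 in medium against small (28.5-fold; limma adjusted p = 0.000686), and by 4.95 ± 0.61 in large (30.9-fold; limma adjusted p = 0.00284). Small replicate 2 was at the floor, so these folds are understated.

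LAMP1, a major glycoprotein of the lysosomal membrane, had levels of -3.17, -1.93, -0.29 and -0.19 in small, 4.55, 2.63, 1.83, 1.62 and 1.52 in medium, and 4.27, 1.66 and 2.93 in large. Spread within groups was wide, with SDs of 1.43, 1.26 and 1.30 in small, medium and large, and no small artery reached the others. The rise was 3.83 ± 0.78 in medium (limma adjusted p = 0.0218) and 4.35 ± 0.88 in large (limma adjusted p = 0.0395), with small replicate 1 at the floor. LAMP2, its relative that also serves chaperone-mediated autophagy, had levels of 3.26, 3.44, 1.61 and 3.34 in small, 5.29, 4.49, 4.09, 4.67 and 4.21 in medium, and 4.91, 4.18 and 4.88 in large. Small replicate 3 lay far below the rest of its group, and the other 3 small arteries were below all medium and large ones too. On this probe LAMP2 rose by 1.64 ± 0.38 in medium (limma adjusted p = 0.0378), and the 1.75 ± 0.43 in large had a limma adjusted p of 0.0733. All 3 LAMP2 probes had all medium and large arteries above all small ones, with differences of 1.26 and 1.56 in medium and 1.41 and 1.27 in large on the dimmer probes.

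MCOLN1, the lysosomal calcium channel mucolipin 1, had levels of 0.72, 0.43, 1.21 and 0.75 in small, 2.94, 1.98, 1.72, 1.76 and 1.67 in medium, and 2.86, 2.07 and 2.62 in large. Each large artery exceeded 4 of the 5 medium arteries, and medium replicate 1 exceeded them all. MCOLN1 rose by 1.23 ± 0.28 in medium (limma adjusted p = 0.0362) and by 1.74 ± 0.32 in large (limma adjusted p = 0.0256), both against small. CLN3, a membrane protein mutated in juvenile Batten disease, differed by 0.70 and 0.85 without passing the threshold, and CTNS, the cystine exporter, by 0.08 and -0.15. The dimmer CTNS probe differed by -0.31 and -0.36, with limma adjusted p of 0.252 and 0.287.

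**Figure D2:**
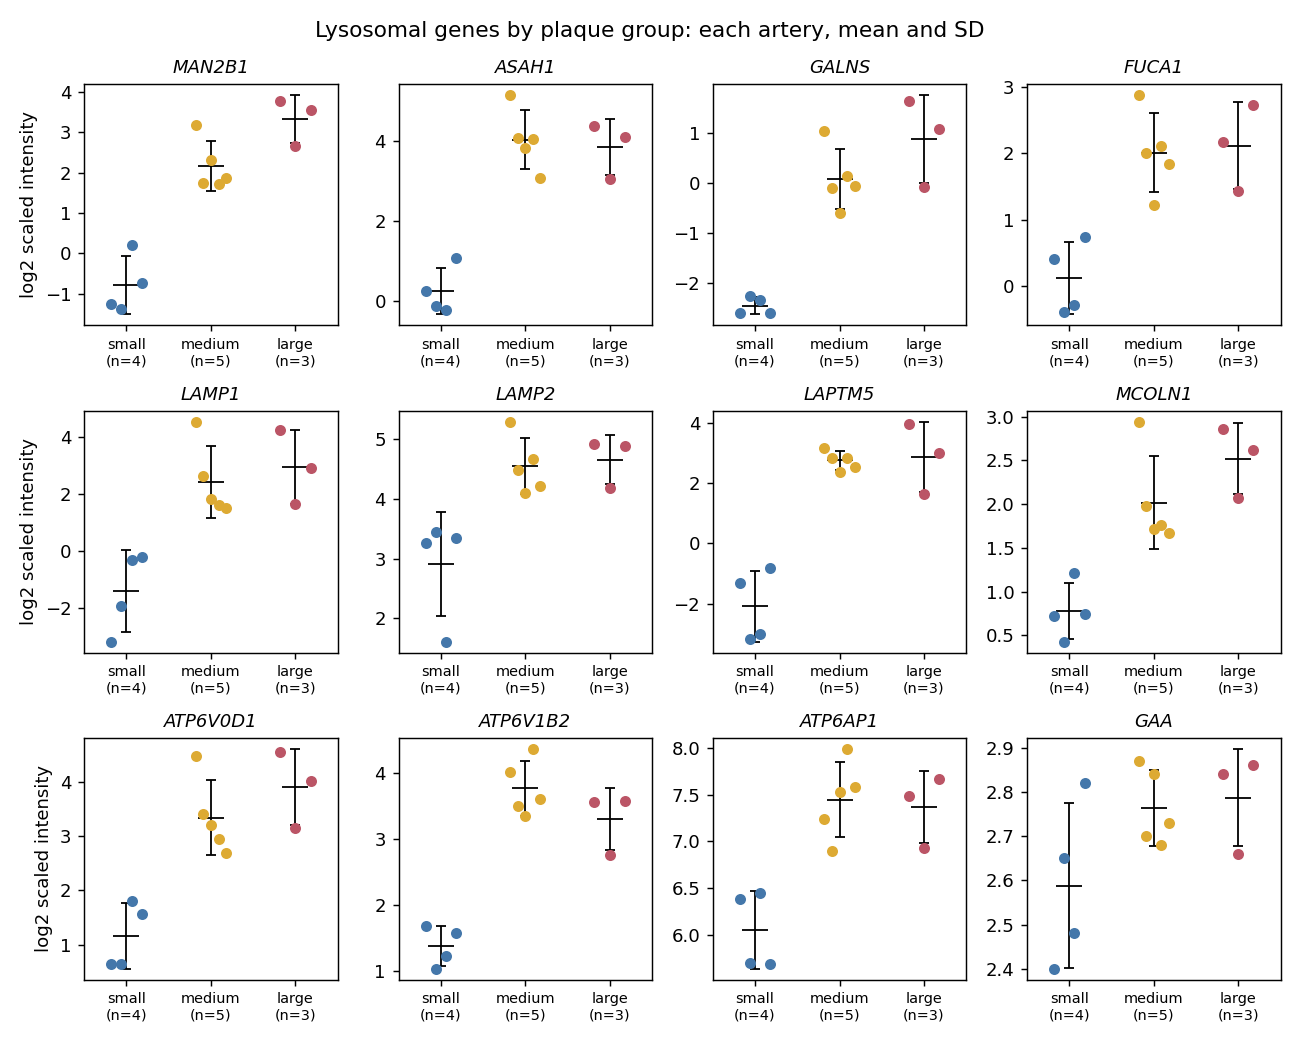
Log2 scaled intensity of 11 lysosomal genes that rose in at least 1 comparison and of GAA, which did not; each point is 1 artery, and bars give the mean and SD of each group (4 small, 5 medium and 3 large plaque arteries). Except for GAA, every medium and large artery lies above every small artery, while medium and large overlap in all 12 panels.

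The LAPTM5 relatives LAPTM4A and LAPTM4B did not share its pattern. LAPTM4A had levels of 5.96, 6.44, 4.76 and 6.80 in small, 6.84, 6.82, 5.66, 5.30 and 5.56 in medium, and 6.74, 6.71 and 6.48 in large. The 3 groups overlapped, and the medium group split into a high pair and a low trio. Its differences against small were 0.05 in medium (limma adjusted p = 0.968) and 0.65 in large (limma adjusted p = 0.552).

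LAPTM4B had levels of -0.94, -0.63, -0.83 and -0.98 in small, -1.0, -0.89, -0.96, -0.68 and -0.92 in medium, and -1.62, -1.28 and -1.85 in large. The large arteries were the lowest 3 of the 12, and the values of small and medium overlapped. This was the 1 gene of the 42 whose large arteries all lay below all others, as was the case for 0.859% of all genes. The differences were -0.74 ± 0.18 in large against small (limma adjusted p = 0.0694) and -0.69 ± 0.17 in large against medium (limma adjusted p = 0.739), and neither passed the threshold. Its levels lay below the median probe in all 12 arteries.

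Among the 5 measured proton pump genes, ATP6V0D1, ATP6V1B2 and ATP6AP1 rose in medium, and ATP6V0D1 and ATP6V1B2 in large against small. ATP6V0D1, subunit d of the membrane sector, had levels of 0.65, 0.64, 1.80 and 1.57 in small, 4.47, 3.40, 3.21, 2.94 and 2.69 in medium, and 4.55, 3.16 and 4.01 in large. The lowest of the 8 medium and large arteries was 0.89 above the highest small artery. The rise was 2.18 ± 0.40 in medium (limma adjusted p = 0.014) and 2.74 ± 0.46 in large (limma adjusted p = 0.015).

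ATP6V1B2, the B subunit isoform of the catalytic sector found in most cells, had levels of 1.68, 1.03, 1.22 and 1.58 in small, 4.02, 3.51, 3.35, 4.37 and 3.61 in medium, and 3.57, 2.76 and 3.58 in large. Here the medium arteries included the highest values and large replicate 2 was the lowest of the 8. ATP6V1B2 rose by 2.40 ± 0.26 in medium (limma adjusted p = 0.000557) and by 1.93 ± 0.29 in large (limma adjusted p = 0.00963). ATP6AP1, an accessory subunit of pump assembly, had levels of 6.38, 5.70, 6.45 and 5.68 in small, 7.24, 6.90, 7.53, 7.99 and 7.58 in medium, and 7.49, 6.93 and 7.67 in large. All 8 were again above the small group. Its rise of 1.39 ± 0.26 in medium passed the threshold (limma adjusted p = 0.0154), and the 1.31 ± 0.30 in large had a limma adjusted p of 0.0593.

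Not all pump subunits differed alike. ATP6V1A, the catalytic A subunit that partners the B subunit, differed by 0.40 in medium (95% interval -0.37 to 1.17) and 0.05 in large (-0.83 to 0.92). ATP6V1H, the regulatory H subunit, differed by -0.21 (-0.64 to 0.21) and -0.28 (-0.76 to 0.21). Of 15 measured subunits outside the members, ATP6V1D rose in medium, by 2.20 (limma adjusted p = 0.0379), and none fell. These counts are near the 3.58% of all genes that rose and the 1.61% that fell in that comparison. No other subunit passed in large against small, where ATP6V1D differed by 2.40 (limma adjusted p = 0.0685). The median over those 15 was 0.45 in medium and 0.40 in large.

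The 4 MiT/TFE factors differed from one another. TFEC, the family member restricted largely to myeloid cells in the mouse, had levels of 0.42, 0.32, 0.98 and 0.44 in small, 2.14, 3.10, 4.39, 4.09 and 4.02 in medium, and 3.60, 3.12 and 1.92 in large on its brightest probe. All small arteries lay below the other 8, and the highest values were those of medium replicates 3, 4 and 5. TFEC rose by 3.01 ± 0.45 in medium against small (8.04-fold; limma adjusted p = 0.00467), and the 2.34 ± 0.52 in large had a limma adjusted p of 0.0532.

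The second TFEC probe gave levels of 0.06, 0.23, -1.49 and 0.14 in small, 4.12, 2.51, 2.36, 3.22 and 2.88 in medium, and 3.31, 2.32 and 2.95 in large. It also separated the small arteries from all others, but ordered the medium arteries in another way, with medium replicate 1 the highest instead of the lowest. By this probe the rise was 3.28 ± 0.42 in medium (limma adjusted p = 0.00199) and 3.13 ± 0.48 in large (limma adjusted p = 0.0108). The dimmest probe of TFEC differed by 0.47 and 0.49, not past the threshold.

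MITF, the factor named for its role in pigment cells that also acts in osteoclasts, had levels of 2.06, 2.28, 2.15 and 1.99 in small, 3.56, 3.55, 2.79, 2.74 and 2.81 in medium, and 3.94, 3.49 and 3.58 in large. The small arteries were tight, with an SD of 0.12, medium replicates 1 and 2 lay with the large arteries, and medium replicates 3, 4 and 5 lay between. MITF rose by 0.97 ± 0.22 in medium (limma adjusted p = 0.0321) and by 1.55 ± 0.24 in large (limma adjusted p = 0.0123), both against small. Its other probe, which is dim, differed by 0.23 in medium and by -0.58 in large, with limma adjusted p of 0.613 and 0.262. With the mean over both probes as the level of MITF, the large against small difference was 0.49 and no longer passed the threshold (limma adjusted p = 0.157).

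TFEB, the family member best known for driving lysosomal genes, had levels of 1.30, 0.72, 1.51 and 0.93 in small, 1.34, 1.20, 1.47, 1.60 and 1.06 in medium, and 1.27, 1.40 and 1.71 in large. TFE3, which shares many of its targets, had levels of 2.74, 2.72, 3.35 and 2.45 in small, 2.47, 2.49, 3.08, 3.05 and 2.93 in medium, and 2.44, 2.58 and 2.87 in large. The 3 groups overlapped for both genes. The differences for TFEB were 0.22 in medium (95% interval -0.21 to 0.64) and 0.35 in large (-0.14 to 0.83), and those for TFE3 were -0.01 (-0.48 to 0.46) and -0.18 (-0.72 to 0.35). Both proteins are regulated largely by phosphorylation and entry into the nucleus, which transcript levels do not record.

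**Figure D3:**
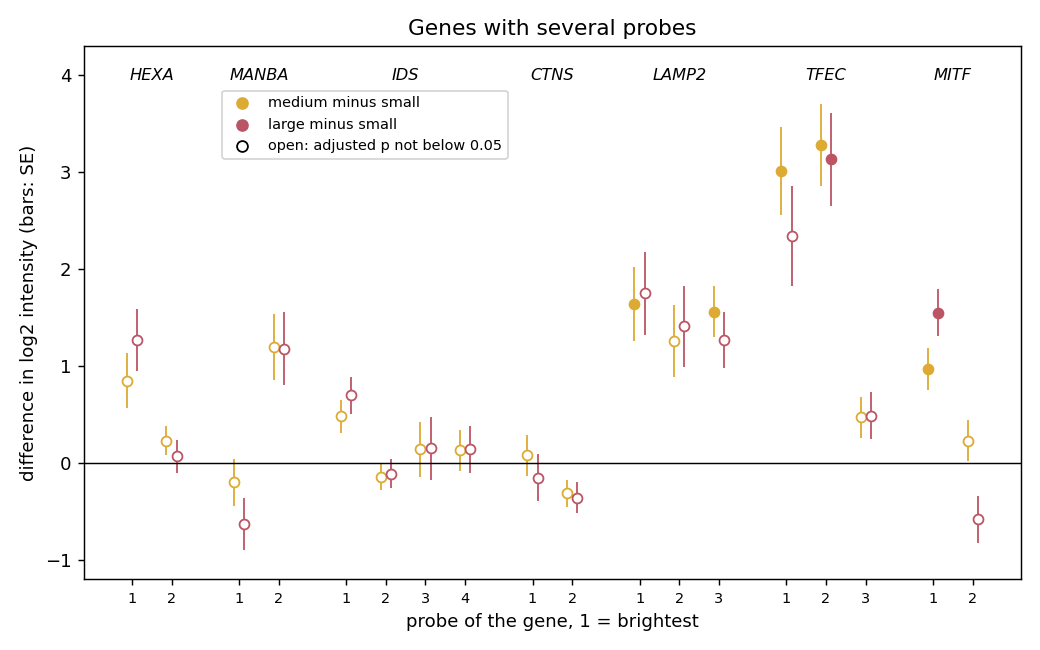
Difference in log2 intensity on every single-symbol probe of the 7 lysosomal genes with several probes, in medium minus small (yellow) and large minus small (red) plaque arteries, with bars for the SE; open points have an adjusted p not below 0.05. The 3 LAMP2 probes and both bright TFEC probes lie well above 0, whereas the probes of MANBA and IDS and, in medium, of CTNS and, in large, of MITF lie on both sides of 0.

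Other genes of the same pathways were read from lists of related genes. Among all genes, 3.58% rose and 1.61% fell in medium, and 1.91% rose and 0.253% fell in large against small. Of 14 measured further lysosomal enzymes and activators, 4 rose and 0 fell in medium and likewise in large against small: GRN, NPC2, CTBS and CREG1. GRN, the progranulin precursor of lysosomal granulins, rose by 3.13 ± 0.35 in medium and 3.97 ± 0.40 in large. NPC2, which carries cholesterol inside the lysosome, rose by 1.90 and 1.60. The list median, however, was 0.42 and 0.36. Of 15 further membrane proteins, 1 rose in either comparison, SLC15A3, a peptide and histidine transporter, by 2.79 and 2.83. A count of 1 in 15 cannot be set apart from the shares of all genes. The median of that list was -0.20 in medium and -0.05 in large.

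Among 11 measured genes for sorting and maturation of lysosomal enzymes, M6PR, CLN8 and NAGPA rose in medium and M6PR in large against small. M6PR, the cation-dependent mannose 6-phosphate receptor that delivers new hydrolases, rose by 1.80 ± 0.34 and 1.99 ± 0.39. NAGPA, which uncovers the mannose 6-phosphate tag, rose by 1.18 in medium. Of 16 genes for the control of MiT/TFE factors by mTORC1 and calcineurin, RRAGD, LAMTOR2 and PPP3CA rose in medium, and RRAGD and LAMTOR2 in large. RRAGD, a Rag GTPase that recruits mTORC1 to lysosomes, had levels of 1.38, 0.61, 0.09 and 0.52 in small, 3.74, 2.87, 3.36, 5.31 and 4.18 in medium, and 4.25, 2.54 and 4.51 in large. The small group lay apart from all 8 other arteries, and the rise was 3.24 ± 0.51 (limma adjusted p = 0.00577) in medium and 3.12 ± 0.58 (limma adjusted p = 0.0262) in large. No gene of these lists fell in either comparison, which for lists of this size is near the 1.61% and 0.253% of all genes that fell.

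Large and medium plaque arteries were then set against each other. Of the 42 genes, 0 passed the threshold in either direction, as was the case for 0% of all genes by limma. At an unadjusted p below 0.05 there were 3, MAN2B1, LAPTM4B and MITF, beside 5.04% of all probes. MAN2B1 was higher in large by 1.16 ± 0.43 and MITF by 0.58 ± 0.23, and LAPTM4B differed by -0.69 ± 0.17. Their limma adjusted p were 0.953, 0.957 and 0.739. The median over the 42 genes was 0.11.

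Plaque area, given for every animal, allowed a slope over all 12 arteries. By limma 7 of the 42 genes rose with area and 0 fell, beside 0.953% and 0.127% of all genes. The 7 were MAN2B1, PSAP, GALNS, MCOLN1, LAPTM5, ATP6V0D1 and MITF. At an unadjusted p below 0.05 there were 28 genes, 4 of them with a negative slope, beside 15.9% of all probes in either direction. The slope of GALNS was 4.23 ± 0.53 log2 units per mm2 (limma adjusted p = 0.0171), that of MAN2B1 4.99 ± 0.69 (limma adjusted p = 0.0212) and that of LAPTM5 6.38 ± 1.17 (limma adjusted p = 0.0353). PSAP, which passed in neither comparison against small, had a slope of 2.53 ± 0.48 (limma adjusted p = 0.0398). The slope uses the same arteries as the group comparisons.

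Within the 8 medium and large arteries alone, 0 of the 42 genes passed by limma, as did 0% of all genes. At an unadjusted p below 0.05 there were 5, MAN2B1, SMPD1, NAGLU, GALNS and LAPTM4B, beside 5.5% of all probes. The slope of MAN2B1 was 2.68 ± 0.78 there and that of GALNS 2.47 ± 0.75, with limma adjusted p of 0.744 and 0.765. LAPTM4B had a slope of -1.41 ± 0.40 (limma adjusted p = 0.744). For ASAH1 and LAPTM5 the medium arteries overlapped the large ones, and their slopes within the 8 were 0.21 ± 1.00 and 1.38 ± 0.86, with limma adjusted p of 1.0 and 0.986.

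**Figure D4:**
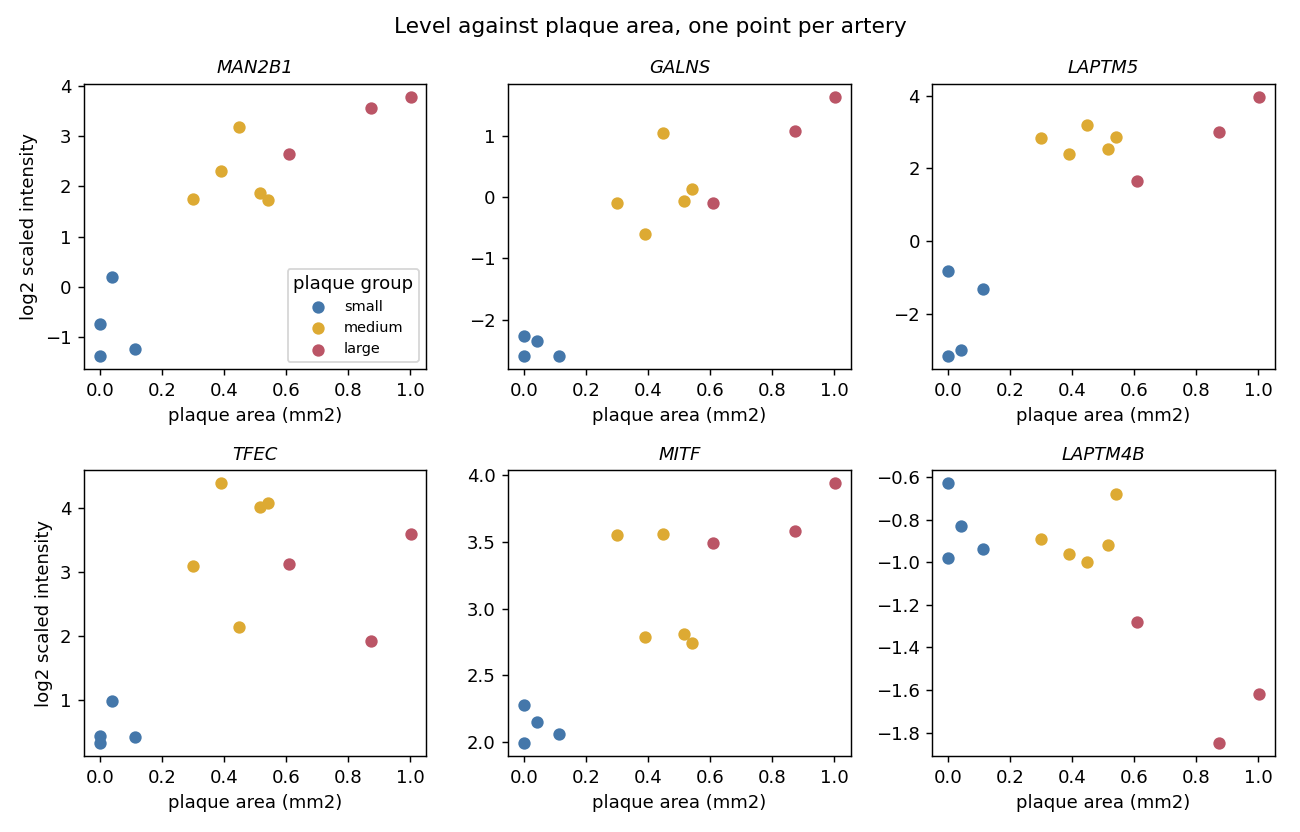
Log2 scaled intensity of 6 lysosomal genes against plaque area in mm2, 1 point per artery, coloured by group. MAN2B1 and GALNS are highest in the arteries of 0.873 and 1.003 mm2, TFEC peaks in medium arteries, and LAPTM4B is lowest in the 3 large arteries.

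For 19 of the 42 genes all 8 medium and large arteries lay above all 4 small arteries, and for 0 all lay below. Over all genes this was so for 4.69% above and 3.16% below. The 19 were 10 enzymes or activators, 4 membrane proteins, 3 pump genes and 2 transcription factors. The gap between the lowest of the 8 and the highest small artery ran from 2.47 log2 units for LAPTM5 to 0.02 for GUSB and IDS.

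Arteries differed among themselves within a group. Over these 19 genes, large replicate 3 was among the 3 highest of the 8 arteries for 17 genes, and large replicate 1 and medium replicate 1 for 15 each. Large replicate 2, with the smallest plaque of its group, and medium replicate 2 were among them for 0. Large replicate 2 was the lowest of the 8 for 6 genes and medium replicate 5 for 5. Among the small arteries, replicates 1 to 4 were the lowest for 3, 9, 2 and 5 of the 19 genes. Replicates 2 and 4, which held no plaque, were thus the lowest most often. Small replicates 1 to 4 were the highest for 3, 4, 7 and 5 genes, which does not follow their plaque areas. The median within-group SD over all 42 genes was 0.42, 0.41 and 0.42 log2 units in small, medium and large.

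**Figure D5:**
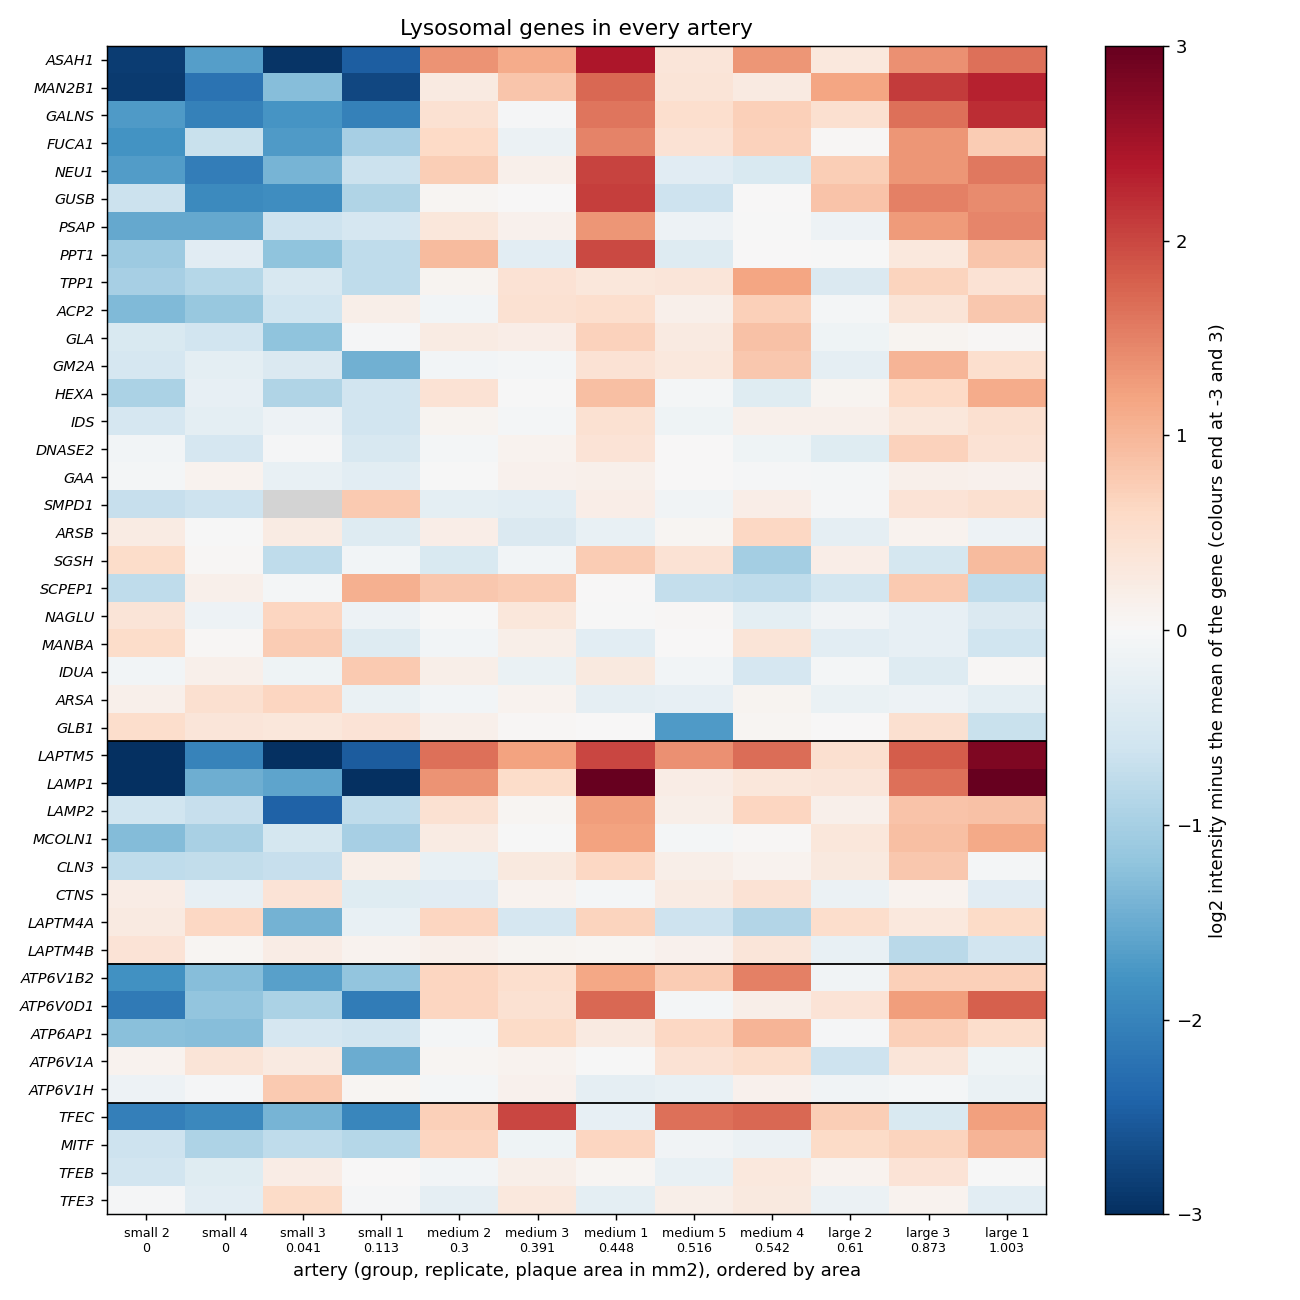
Level of the 42 lysosomal genes in each artery as log2 intensity minus the gene's mean over the arteries, with arteries from left to right by plaque area and genes grouped as enzymes or activators, membrane proteins, proton pump and transcription factors. The 4 small arteries are blue for the upper enzymes and for LAPTM5, LAMP1, ATP6V1B2, ATP6V0D1 and TFEC, and medium replicate 1 and large replicates 1 and 3 are the reddest; grey marks a missing value.

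Many, but not all, markers of macrophages rose alongside the lysosomal genes. Of 16 measured macrophage genes, 9 rose in medium and 8 in large against small, and 0 fell. Among all genes, 3.58% rose and 1.61% fell in medium, and 1.91% rose and 0.253% fell in large. The difference was negative for 4 of the 16 in each comparison, CD68 and MARCO among them. TYROBP, a signalling adaptor of myeloid cells, rose by 3.11 in medium and 3.07 in large, and CD163, a scavenger receptor of macrophages, by 2.68 and 2.37. The summed intensity of the list was 317 to 641 in medium and 337 to 508 in large, against 79.9 to 145 in small plaque arteries, with no overlap and no marker at the floor on all arrays. Medium replicate 1, high in many of the lysosomal genes, had the highest sum, 641, and large replicate 2 and medium replicate 2, at 337 and 317, had the lowest of the 8. Not all arteries ran this way: medium replicate 5, the lowest of the 8 for 5 lysosomal genes, had a sum of 506. Medium replicate 4 had 522. The sums are of linear intensities, so the brightest genes weigh most in this order. CD68, itself a lysosomal membrane glycoprotein used as a macrophage stain, differed by -0.44 ± 0.45 and -0.66 ± 0.51 on its only probe, and the scavenger receptor MARCO by -0.66 and -0.90.

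Smooth muscle markers ran the other way: 2 of 7 fell in medium and 1 in large, and the summed intensity was 768 to 1580 in medium and 1010 to 1640 in large, against 1830 to 2660 in small. MYLK, the myosin light chain kinase, fell by 1.61 in medium and by 1.48 in large. T cell, endothelial, fibroblast and osteoclast lists had 1, 0, 0 and 1 genes higher in medium and 0, 0, 0 and 1 in large against small, and none lower. Over all genes, 3.58% rose and 1.61% fell in medium, and 1.91% rose and 0.253% fell in large. The gene of the osteoclast list was CTSK, the protease cathepsin K, at 1.40 and 1.60, while the median over that list was 0.07 in medium and 0.19 in large. The summed intensity of the list, made up mostly of CTSK, at 242 to 414 in medium and 305 to 465 in large, lay above the 106 to 159 in small. The part of cell composition in the lysosomal differences was not tested.

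The calls differed in how far they held under other settings and without single animals. Some, such as GLA in medium against small, were also lost without an artery outside the comparison, here large replicate 1. In medium against small, 7 of the 15 passed under all 22 alternative settings: MAN2B1, ASAH1, GALNS, LAPTM5, ATP6V0D1, ATP6V1B2 and TFEC. In large against small, 4 of the 12 did: MAN2B1, ASAH1, GALNS and LAPTM5. Without small replicate 2, 7 genes passed in medium and 6 in large against small, and without large replicate 1 or large replicate 3, 4 genes passed in large against small. None of the 7 slope calls passed under all 21 alternatives, and without small replicate 2, small replicate 4 or large replicate 3 the number was 0.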

How the data were processed

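The deposited table holds 1 linear intensity per probe and array. Per the labels' protocols, total RNA of each biopsy was amplified to biotinylated cRNA and stained with a single dye, and the series text names CodeLink human arrays. The intensity values had been scaled by the authors to an array median between 1.0037 and 1.0085, as the values show, and 3050 of them are negative, which implies a subtraction of background at some step. How images were read, background taken off and values scaled is not given in the sources used here.

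Of 54359 probes, 53877 had values on at least 2 arrays of each group and were tested; 479 were empty. A floor at the 5th percentile of positive values, 0.111, replaced the 5.446% of values below it, and log2 was taken without further normalization. The platform annotation gives a single symbol for 23267 of the tested probes, more than 1 for 900 (not used for names) and none for 29710. These symbols can be old. The files name no genome build, so no coordinates are given.

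Group means over 12 arrays, and slopes on plaque area over 12 and over 8 arrays, were fitted with limma 3.58.1 (lmFit, eBayes) in R 4.3.3. Two-sided p-values received Benjamini-Hochberg adjustment across the whole table, and 0.05 was the threshold. "Rose" and "fell" refer to genes past it. Members and lists were chosen with earlier results of these data known. All members could be named, and of each other list up to 4 genes of smallest p in medium against small, with CD68, CD163, TYROBP, CD86, MARCO, ACTA2 and MYH11 in any comparison. Alternatives covered normalization, floor, dim probes, probe per gene, variance model, array weights, arrays in the fit, scale of area, omission of each animal in turn, and a block for replicate number. The fits were also run on simulated data with independent normal noise, complete values and no floor. That run does not check calls that include values at the floor. The number of arrays limits the precision.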

Additional observations from a re-analysis of the deposited data

Results flagged for a closer look

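Values of 6 lysosomal genes lay far from the rest of their group, where the gap to the nearest artery took up more of the group's range than Dixon's 95% critical value allows. The groups of 4 and 5 arteries were examined, 83 in all, and chance alone marks about 1 in 20 of them. In the medium group, GUSB was highest in replicate 1 at a log2 level of 1.39, with the nearest artery at -0.62, and MCOLN1 was highest in the same artery at 2.94, with the nearest at 1.98. GLB1 was lowest in medium replicate 5 at -2.58, with the nearest at -0.86. In the small group, CLN3 was highest in replicate 1 at 1.12 (nearest 0.24), and ATP6V1A was lowest in the same artery at -1.43 (nearest 0.15). LAMP2 was lowest in small replicate 3 at 1.61 (nearest 3.26).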

How the results depend on the processing

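Of the 15 and 12 calls against small under 22 alternatives, and of the 7 slope calls under 21, 0 reversed direction. Without small replicate 4 and medium replicate 5, whose identity numbers lie apart, 9 of the 42 genes rose in medium against small (15 in the reported fit), 7 in large against small (12) and 0 with area (7). With the mean of all probes of a gene the medians were 0.649 (0.902) in medium and 0.661 (0.917) in large against small, and without dim probes 1.11 in large. In large against small 1 gene, LAPTM4B, fell with the floor at the 20th percentile, with the mean of all probes or with array weights. Slope calls were the least stable: 3 with the floor at the 1st percentile, 4 at the 20th, 18 without dim probes or on the square root of area, 15 with the mean of all probes, and 13 with a trended robust variance.

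Leaving out 1 animal at a time gave 7 to 15 rises in medium against small, the fewest without small replicate 2, and 4 to 14 in large against small, the fewest without large replicate 1 or large replicate 3, with 6 without small replicate 2. It gave 0 to 13 by slope: 0 without small replicate 2, small replicate 4 or large replicate 3, 2 without small replicate 1 or 3, medium replicate 5 or large replicate 2, 3 without medium replicate 3, 4 without large replicate 1 and 13 without medium replicate 1. The medians ran from 0.759 to 0.971, from 0.752 to 1.1 and, by slope, from 1.11 to 1.49. The median of large against medium ran from -0.03 (without large replicate 3) to 0.206, and that of the slope within medium and large from 0.282 to 0.656. The cause of these shifts was not tested.

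Deviations from the group means correlated weakly between same-numbered animals (r between -0.159 and 0.217). Differently numbered animals were not set beside them, so whether the numbers pair animals was not tested. With the replicate number as a block, 12 genes rose in medium and 9 in large against small.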
